A study of Mus musculus with 21 samples.

Results

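The peroxisome proliferator-activated receptors (PPARs), the PGC-1 coactivators and the estrogen-related receptors (ERRs) were followed as 10 genes in mouse heart: Ppara, Ppard, Pparg, Ppargc1a, Ppargc1b, Esrra, Esrrb, Esrrg, Rxra and Tfam. They were chosen by gene name, and all 10 were found, each once, among 23718 genes with reads. Hearts came from male C57BL/6NJ mice that entered the study at 8 to 10 weeks of age and then ate chow or a high-fat diet (60% of calories as fat) over 10 weeks. They received an adeno-associated virus carrying renin (AAV-Renin), the enzyme that starts angiotensin production, or a control injection. The sample labels call the control no virus, whereas the study's design text calls it a null vector, and which of these it was could not be settled here. Hearts were collected 6 weeks after the injection behind the eye and freeze-clamped. RNA sequencing covered 4 chow control, 6 chow renin, 6 high-fat control and 5 high-fat renin hearts, of which the last is the study's disease model, a heart failure in which the pumped fraction is preserved. The labels name separate samples and do not say that each is a different mouse, so p-values measure the spread between these samples.

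PPARs are nuclear receptors that bind fatty acids and their derivatives and switch on genes for fatty acid uptake and burning. They bind DNA as a pair with a retinoid X receptor, of which Rxra encodes the alpha form. ERRs are orphan receptors that turn on genes of the respiratory chain and the tricarboxylic acid cycle, and PGC-1 proteins bind to both receptor families and raise their activity. Tfam encodes the factor that packages mitochondrial DNA and starts its transcription. In heart muscle, which burns mostly fatty acids, these genes are best known for setting mitochondrial capacity and fuel choice.

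Esrra (ENSMUSG00000024955) lies on the minus strand at chr19:6910977-6921813, Rxra (ENSMUSG00000015846) on the plus strand at chr2:27676440-27762957 and Tfam (ENSMUSG00000003923) on the minus strand at chr10:71225464-71238280, in GRCm38 with GENCODE M21 genes. Promoters are shown for the 3 members that differed between groups (Esrra, Rxra and Tfam) and for 2 starts of Pparg, one in the upstream region that held nearly all of its transcripts and one of its gamma 2 form. Each is the 250 bases before a RefSeq start, build GRCm38.p6, written 5′ to 3′ on the gene's strand. Capitals mark the nuclear receptor half-site AGGTCA.
Esrra, chr19:6921809-6922058, minus strand: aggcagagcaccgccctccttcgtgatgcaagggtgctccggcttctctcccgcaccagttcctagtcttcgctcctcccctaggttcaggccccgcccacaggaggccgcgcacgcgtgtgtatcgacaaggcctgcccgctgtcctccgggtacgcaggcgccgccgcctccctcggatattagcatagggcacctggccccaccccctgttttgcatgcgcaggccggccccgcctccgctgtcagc
Rxra, chr2:27676951-27677200, plus strand: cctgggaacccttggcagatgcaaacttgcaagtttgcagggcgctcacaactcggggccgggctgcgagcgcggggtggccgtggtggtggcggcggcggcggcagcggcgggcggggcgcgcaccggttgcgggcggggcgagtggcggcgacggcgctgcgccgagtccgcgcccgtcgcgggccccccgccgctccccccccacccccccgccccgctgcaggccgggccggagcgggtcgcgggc
Tfam, chr10:71238045-71238294, minus strand: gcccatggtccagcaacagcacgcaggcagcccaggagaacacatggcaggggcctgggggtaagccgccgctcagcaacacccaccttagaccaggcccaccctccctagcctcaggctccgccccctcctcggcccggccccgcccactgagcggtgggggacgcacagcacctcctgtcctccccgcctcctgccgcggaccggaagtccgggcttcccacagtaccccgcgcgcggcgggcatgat
Pparg upstream, chr6:115360894-115361143, plus strand: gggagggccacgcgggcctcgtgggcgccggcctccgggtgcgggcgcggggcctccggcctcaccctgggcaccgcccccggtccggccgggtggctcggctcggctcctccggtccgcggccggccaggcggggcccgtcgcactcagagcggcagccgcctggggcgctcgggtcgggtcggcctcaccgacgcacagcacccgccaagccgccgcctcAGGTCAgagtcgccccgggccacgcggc
Pparg downstream, chr6:115421816-115422065, plus strand: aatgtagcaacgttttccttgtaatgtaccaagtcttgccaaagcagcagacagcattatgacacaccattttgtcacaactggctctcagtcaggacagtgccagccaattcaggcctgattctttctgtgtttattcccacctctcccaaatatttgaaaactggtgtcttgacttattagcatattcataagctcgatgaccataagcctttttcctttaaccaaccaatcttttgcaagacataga
RefSeq promoters were found for 9 of the 10 members, all but Ppargc1b. Esrra, Rxra, Tfam and the upstream Pparg window are rich in G and C (68.4%, 81.2%, 72.0% and 82.4%), whereas the downstream Pparg window holds 40.8%. Both strands were searched for 6 motifs, chosen after the data had been seen. The half-site AGGTCA was found in the windows of 2 of 9 members, Pparg and Rxra, against 15.8% of 27025 genes. The Rxra matches lie in a second RefSeq window that is not printed. The ERR element TCAAGGTCA, which contains the half-site, was in 0 of 9 members, in 0 of 29 ERR and PGC-1 target genes with a window, and in 0.422% of all genes. The E-box CACGTG and the cAMP response element TGACGTCA were in 0 of 9 members, against 6.86% and 1.77% of all genes. The cAMP response element was in 4 of the 29 target genes (Cycs, Uqcrfs1, Ogdh and Mdh2). The NRF1 element was in 1 member, Ppara, against 0.877% of all genes, and the direct repeat DR1, a pair of half-sites, was in 0 of 9, against 0.0407%. A match is a description of these letters only.

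Library totals were 18743226 to 29265430 estimated reads, and the chow control hearts had the lowest (18743226 to 21414093). Cardiomyocyte and ventricle markers were high in every library, and summed white adipocyte markers were between 0.14 and 30.4 CPM, which are counts scaled to library size. Atrial markers were high in 5 libraries, at least 1 in each group: chow control 3, chow renin 1 and 3, high-fat control 3 and high-fat renin 3. Their atrial score, a mean log2 level over the markers, was 4.86 to 6.04, against at most 2.20 in the other 16. All 6 chow renin hearts had central nervous markers at a summed 176.7 to 299.0 CPM, against 41.8 to 80.9 in the other 15. Skeletal muscle markers, which include Acta1, an actin that heart muscle also makes, summed to 718.0 to 2538 CPM in high-fat renin and at most 754.3 elsewhere. The clock score, the mean log2 level of 8 clock genes minus that of 5 clock genes of the opposite phase, was 3.47 to 3.68 in chow control, 2.81 to 3.23 in chow renin, 3.15 to 3.44 in high-fat control and 2.35 to 3.29 in high-fat renin. The chow control range overlapped no other group, so clock score and group cannot be told apart in comparisons with chow control.

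Levels of different genes are compared in TPM, the depth-scaled transcript abundance that allows for length. Esrra, encoding ERR alpha, was the most abundant member at 75.2 ± 8.85 TPM (SD, n = 21) and stood above every other member in all 21 hearts. Tfam followed at 16.4 ± 2.55 TPM, Ppard at 16.2 ± 1.73 TPM and Rxra at 13.3 ± 1.18 TPM. Tfam and Ppard could not be ordered, since Tfam was the higher in 10 of 21 hearts, whereas Ppard was above Rxra in 21 of 21. The order of Ppard and Rxra holds for all annotated transcripts summed. Of the Ppard level 40.0% was Ppard-209, a transcript of 739 bases with a retained intron, on 54 to 155 estimated reads a heart. Its largest protein-coding transcript, Ppard-201, had 5.95 TPM, against 13.2 TPM for Rxra-201. Of the Tfam level 61.45% was Tfam-202, of 779 bases, on 103 to 243 estimated reads a heart. Ppargc1a had 8.03 ± 1.58 TPM, Esrrb 6.73 ± 0.961 TPM and Esrrg 5.73 ± 1.19 TPM. Their order was not fixed either, with Ppargc1a above Esrrb in 16 of 21 hearts and Esrrb above Esrrg in 16 of 21. Pparg had 4.77 ± 0.571 TPM, Ppara 4.63 ± 2.09 TPM and Ppargc1b 3.41 ± 0.799 TPM. Pparg and Ppara did not differ beyond their spread, with Pparg the higher in 13 of 21 hearts. Of the PPARs, then, the delta form had the highest transcript level per length in these hearts, with all its transcripts summed.

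**Figure D1:**
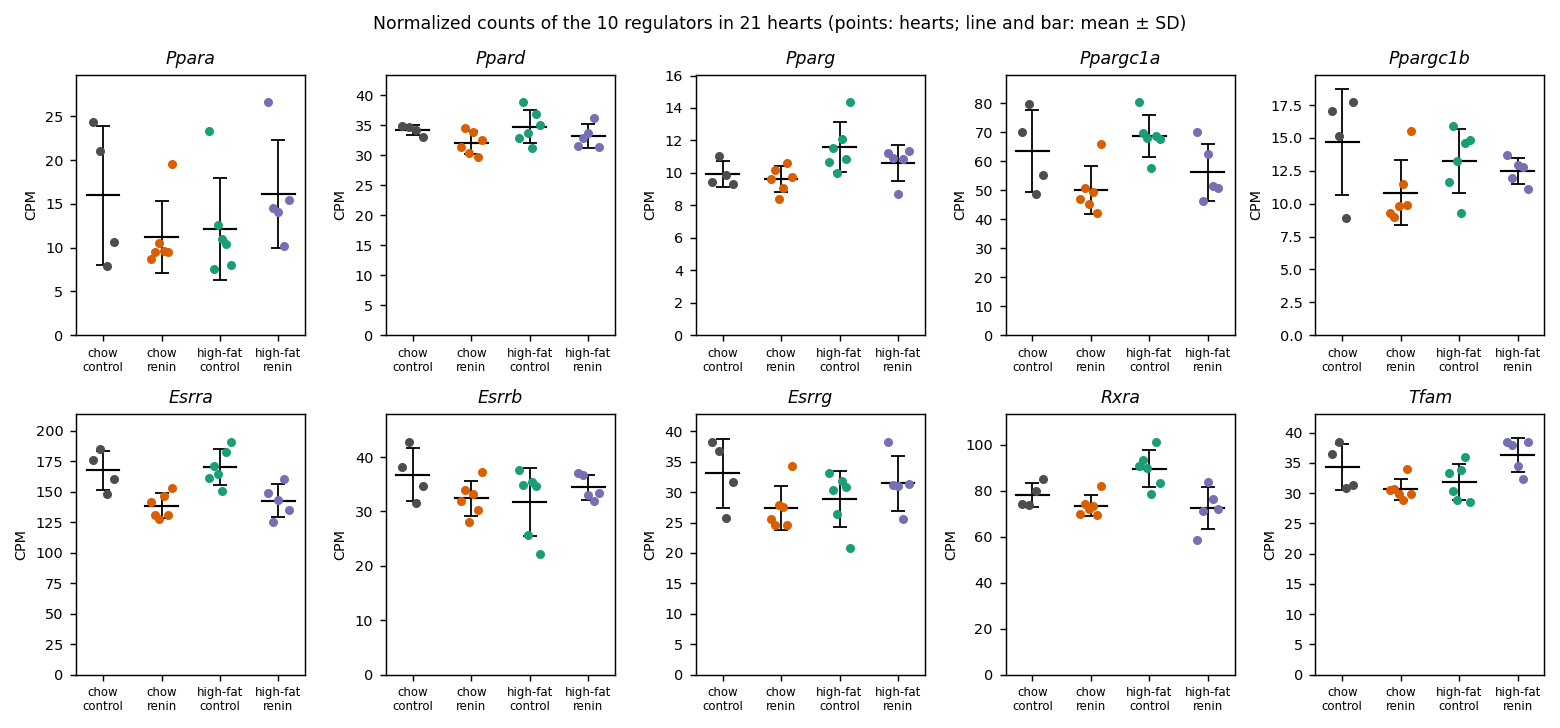
Normalized counts (CPM, linear axis from 0) of the 10 regulators. Each point is 1 heart of 21, and the line and bar give the group mean and SD. Esrra lies between 125.5 and 191.1 CPM, with both renin groups lower on average than their diet controls, and Ppara has 1 or 2 hearts well above the rest in every group.

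Within a gene, values are given as CPM normalized by the trimmed mean of M-values. Differences are log2 fold changes with their standard errors (SE) from edgeR's quasi-likelihood test on 15216 genes. P-values were adjusted over all of these by Benjamini-Hochberg, and a gene counts as changed at an adjusted p under 0.05. In heart pieces, fewer cells of a type and less RNA per cell cannot be told apart. All comparisons with chow control share its 4 hearts, and the 3 comparisons with high-fat renin share its 5.

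In the model itself, high-fat renin against chow control, no regulator passed the test. Counts were 0 of 10 members by edgeR, beside 8.29% of all genes tested, and 1 of 10 at an unadjusted p under 0.05, beside 23.9% of all genes. The member with the lowest p was Esrra. Its values in the chow control hearts were 176.0, 184.9, 148.6 and 160.7 CPM, and in the high-fat renin hearts 149.2, 125.5, 143.5, 160.9 and 134.7 CPM. The groups overlapped, with 3 of 5 high-fat renin hearts below every control. The difference in Esrra was -0.23 (SE 0.0822, 95% interval -0.40 to -0.06), with an edgeR adjusted p of 0.0835. It passed the test without chow control 3 (adjusted p = 0.0417) or without high-fat renin 4 (adjusted p = 0.0343). In the authors' deposited table, the high-fat and virus column gives Esrra a log2 fold change of -0.22 with an adjusted p of 0.0192. That table does not name its reference group, and it gives the other 9 members adjusted p-values of 0.361 or more.

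The other members were measured with very different precision in this comparison. Ppard, encoding the delta receptor, differed by -0.05 (95% interval -0.18 to 0.09). The interval for Ppara, the chief fatty acid sensor of heart muscle, ran from -0.78 to 0.81, so differences of either sign within those limits are compatible with these values. The coactivator genes had differences of -0.18 for Ppargc1a (-0.48 to 0.13) and -0.24 for Ppargc1b (-0.61 to 0.14). Tfam had 0.08 (-0.09 to 0.25), Pparg 0.10 (-0.12 to 0.32) and Rxra -0.11 (-0.29 to 0.06), and the beta and gamma ERRs had -0.10 for Esrrb (-0.35 to 0.16) and -0.08 for Esrrg (-0.36 to 0.21). The median over the 10 members was -0.09, and over all genes 0.01.

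Genes that the regulators are known to act on did pass the test. Of 35 ERR and PGC-1 targets, a list of respiratory chain, tricarboxylic acid cycle and muscle energy genes, 14 fell and 0 rose in high-fat renin against chow control, beside 4.25% of all genes that fell and 8.29% called either way. The list median was -0.17, and 31 of 35 values were negative. Cox7a1, a subunit of cytochrome oxidase, fell by 0.39 (SE 0.112, adjusted p = 0.0326). Kcnq1, a potassium channel, fell by 0.36 (SE 0.108, adjusted p = 0.0365). Atp5o, a subunit of ATP synthase, fell by 0.35 (SE 0.0813, adjusted p = 0.00923). Atp5o ranged from 519.9 to 613.3 CPM in chow control and from 416.6 to 488.4 CPM in high-fat renin, without overlap. Also lower were 2 other ATP synthase subunits (Atp5a1 and Atp5b), both succinate dehydrogenase genes listed (Sdha and Sdhb), citrate synthase (Cs) and the adenine nucleotide carrier Slc25a4. Cycs, encoding cytochrome c, had a difference of -0.08 and an adjusted p of 0.548, and Perm1, a muscle regulator induced by ERRs, had 0.04 and an adjusted p of 0.843.

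Of 7 cardiomyocyte markers 4 fell in the same comparison and 2 had positive differences that did not pass. Their summed level, of which Myh6, the main heavy chain of mouse heart myosin, was the largest share, was 42460 to 49370 CPM in high-fat renin and 51740 to 63000 CPM in chow control. The part of this in the target genes was not tested. The count of 14 was 0 with the clock score as a covariate, where 0 of all genes tested were called and the score does not overlap between these groups. It was 9 with no filter on low counts, 2 without chow control 2 or chow control 4 and 3 without high-fat renin 1. It was 4 without chow control 1 or high-fat renin 5 and 8 without high-fat renin 2. Without the 5 libraries with atrial tissue it was 14.

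PPAR targets split in direction. Of 35 listed genes 34 could be tested, all but Fgf21, and 1 rose and 3 fell, beside 4.05% of all genes called higher and 4.25% called lower. Fabp3, the fatty acid carrier of the heart muscle cytoplasm, rose by 0.45 (log2; SE 0.0881, edgeR adjusted p = 0.00318). Its range was 1814 to 2026 CPM in chow control and 2586 to 2906 CPM in high-fat renin, without overlap. Ehhadh, a peroxisomal oxidation enzyme, fell by 0.60 (adjusted p = 0.0146). Lpl, the lipase that frees fatty acids from circulating triglyceride, fell by 0.39 (adjusted p = 0.0334), and Mlycd, which degrades malonyl-CoA, fell by 0.26 (adjusted p = 0.0434).

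Several familiar PPAR targets did not pass. Pdk4, a brake on pyruvate oxidation, had a difference of 0.49 (adjusted p = 0.175) and Cpt1b, the gate for fatty acids into muscle mitochondria, 0.11 (adjusted p = 0.450). Angptl4, Acot1 and Ucp3 had adjusted p-values of 0.579, 0.833 and 0.497. With the clock score as a covariate, which does not overlap between these groups, 0 PPAR targets were called in this comparison. With the central nervous score 1 was called lower. Without chow control 4 no target was called lower, and 1 was without chow control 1, high-fat renin 1 or high-fat renin 5.

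Of 32 partners of the receptors and coactivators, 3.12% were called, against 8.29% of all genes. Hdac3, a deacetylase that works with nuclear corepressors, was the 1 called and fell by 0.23 (SE 0.064, adjusted p = 0.0259). Nrf1, Gabpa, Ncor1, Nrip1 and Sirt1 had differences between -0.14 and 0.16, with adjusted p-values from 0.304 to 0.906. Of 15 other factors for mitochondrial DNA, 0 were called by edgeR and 3 had an unadjusted p under 0.05, beside 23.9% of all genes.

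**Figure D2:**
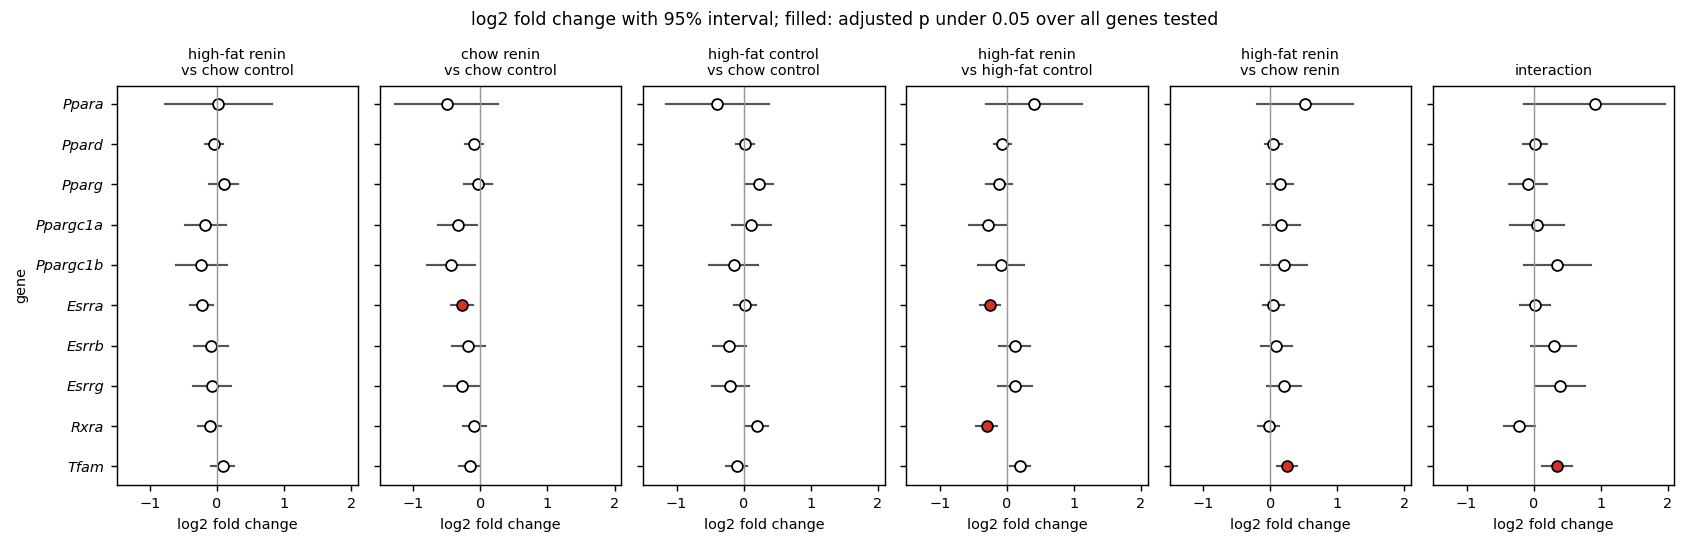
The log2 fold change (point) and 95% interval (line) of each regulator in the 5 comparisons of groups and in the interaction. Filled points have an adjusted p under 0.05 over 15216 genes, which are Esrra, Rxra and Tfam, and the intervals of Ppara are the widest in each panel.

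Renin on chow came with a lower level of Esrra. Chow control hearts had the 4 values given above, from 148.6 to 184.9 CPM, and the chow renin hearts had a lowest value of 127.7, a median of 136.5 and a highest of 152.9 CPM. The groups overlapped in 1 heart, chow renin 6, and the other 5 lay below every control. Esrra fell by 0.27 (SE 0.0789, 95% interval -0.44 to -0.11), with an edgeR adjusted p of 0.0195. It was the 1 member of 10 called, beside 13.5% of all genes tested, 3.36% called lower and 10.1% called higher. All 10 members had negative differences, with a median of -0.23 against -0.03 for all genes, and 5 of 10 had an unadjusted p under 0.05, beside 25.1% of all genes. As log2 ratios of mean TPM, which lack the edgeR normalization, 6 of 10 were negative, with Esrra at -0.21. Pparg (0.08), Rxra (0.04), Ppard (0.03) and Tfam (0.01) were positive in TPM, each below the median of all genes there, 0.09. The authors' deposited table holds a normalized signal whose scaling is not given. In that signal the log2 ratios were -0.03 for Pparg, -0.07 for Rxra, -0.08 for Ppard, -0.10 for Tfam and -0.32 for Esrra.

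Both coactivator genes had larger differences than Esrra but wider spread. Ppargc1a, encoding PGC-1 alpha, had 70.0, 79.7, 48.7 and 55.4 CPM in the chow control hearts, and 42.2 to 65.9 CPM with a median of 48.1 in chow renin. The difference was -0.34 (SE 0.139), with an edgeR adjusted p of 0.117. Ppargc1b, encoding PGC-1 beta, had 17.0, 15.2, 8.88 and 17.7 CPM in chow control, and 8.97 to 15.5 CPM with a median of 9.86 in chow renin. The difference was -0.44 (SE 0.174), with an adjusted p of 0.103. Chow control 3, an atrial library, was the lowest of its group for both, and chow renin 6 the highest of its group for both. Without chow control 3 both passed (adjusted p = 0.0328 for Ppargc1a and 0.00694 for Ppargc1b), and without chow renin 6 both passed as well (0.0269 and 0.0167). Esrrg had -0.27 (adjusted p = 0.195) and Tfam -0.16 (adjusted p = 0.198). The differences were -0.50 for Ppara, -0.18 for Esrrb, -0.09 for both Ppard and Rxra, and -0.04 for Pparg, with adjusted p-values from 0.376 to 0.854.

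The Esrra call in chow renin was kept in 13 of 20 alternatives. Adding the central nervous score to the model gave a difference of -0.08 (adjusted p = 0.999). That score does not overlap between chow renin and the other groups, so in this comparison it and renin cannot be told apart. On the high-fat diet the score overlapped, at 2.09 to 2.90 with renin and 2.41 to 2.98 in the controls. With the clock score the difference was -0.29 (edgeR adjusted p = 0.103), beside -0.27 in the main fit, and the clock score does not overlap between these groups either. The call was also lost without chow control 1, chow control 2, chow renin 3 or chow renin 5 (differences of -0.25 to -0.22, adjusted p = 0.0524 to 0.128), and without the libraries with atrial tissue (-0.29, adjusted p = 0.0627). Summed cardiomyocyte markers were 48000 to 50140 CPM in chow renin, below all chow control hearts, with 7 of 7 markers negative and 2 called, and their part in the Esrra result was not tested.

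ERR and PGC-1 targets were again lower in part. In chow renin against chow control 8 of 35 fell and 0 rose, beside 3.36% of all genes called lower and 13.5% called either way, with a median of -0.18 and 34 of 35 values negative. Kcnq1 fell by 0.41 (adjusted p = 0.00792), Idh3a, of the tricarboxylic acid cycle, by 0.34 (adjusted p = 0.000737) and Cycs by 0.31 (adjusted p = 0.00198). Cycs had 335.4 to 411.4 CPM in chow control and 290.2 to 318.4 CPM in chow renin, without overlap. The count of 8 was 15 in DESeq2 or with replicate numbers as a block, 17 without chow control 3, and 4 with upper-quartile factors or with no filter on low counts. It was 2 without the libraries with atrial tissue, 3 with the clock score, 0 with the central nervous score, and 3 or 4 without chow control 1, 2 or 4 or chow renin 1, 3 or 5. Of 34 PPAR targets 0 were called by edgeR, with 3 at an unadjusted p under 0.05 (25.1% of all genes were). Of 32 partners 1 was called: Rxrg, the gamma form of the retinoid X receptor, fell by 0.31 (SE 0.0931, adjusted p = 0.0288). Of 15 mitochondrial DNA factors 1 was called: Mgme1, a nuclease, fell by 0.31 (SE 0.0945, adjusted p = 0.0263). In these 3 lists the share called, 0.0% of PPAR targets, 3.12% of partners and 6.67% of mitochondrial DNA factors, was below the 13.5% of all genes.

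With high-fat diet alone, no regulator passed the test. In high-fat control against chow control 0 of 10 members were called by edgeR, beside 0.0657% of all genes tested (10 genes, with 1668 at an unadjusted p under 0.05). At an unadjusted p under 0.05 there were 2 members, Pparg and Rxra. Pparg, the fat-storage receptor, had 9.41, 11.1, 9.86 and 9.31 CPM in chow control and 9.97 to 14.3 CPM with a median of 11.2 in high-fat control. Its difference was 0.23 (95% interval 0.02 to 0.43, adjusted p = 0.420). Rxra had 0.19 (0.02 to 0.36, adjusted p = 0.394), and Esrra 0.02 (-0.14 to 0.19). The other differences were 0.11 for Ppargc1a, 0.02 for Ppard, -0.11 for Tfam, -0.15 for Ppargc1b, -0.20 for Esrrg, -0.21 for Esrrb and -0.39 for Ppara, with adjusted p-values from 0.538 to 0.927. The summed white adipocyte markers were 0.31 to 10.4 CPM with a median of 0.60 in high-fat control and 0.30 to 30.4 CPM with a median of 0.75 in chow control, and their part in the Pparg level was not tested.

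PPAR targets had mostly positive differences here, none of which passed the test. Of 34 tested 30 had positive differences, with a median of 0.28 against 0.01 for all genes, and 22 had an unadjusted p under 0.05, beside 11.0% of all genes, while 0 were called by edgeR. Fabp3 had 2069 to 3010 CPM, all above the chow control hearts, a difference of 0.38 and an adjusted p of 0.0962. Of 35 ERR and PGC-1 targets 0 were called, 3 had an unadjusted p under 0.05, and the median was 0.01.

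**Figure D3:**
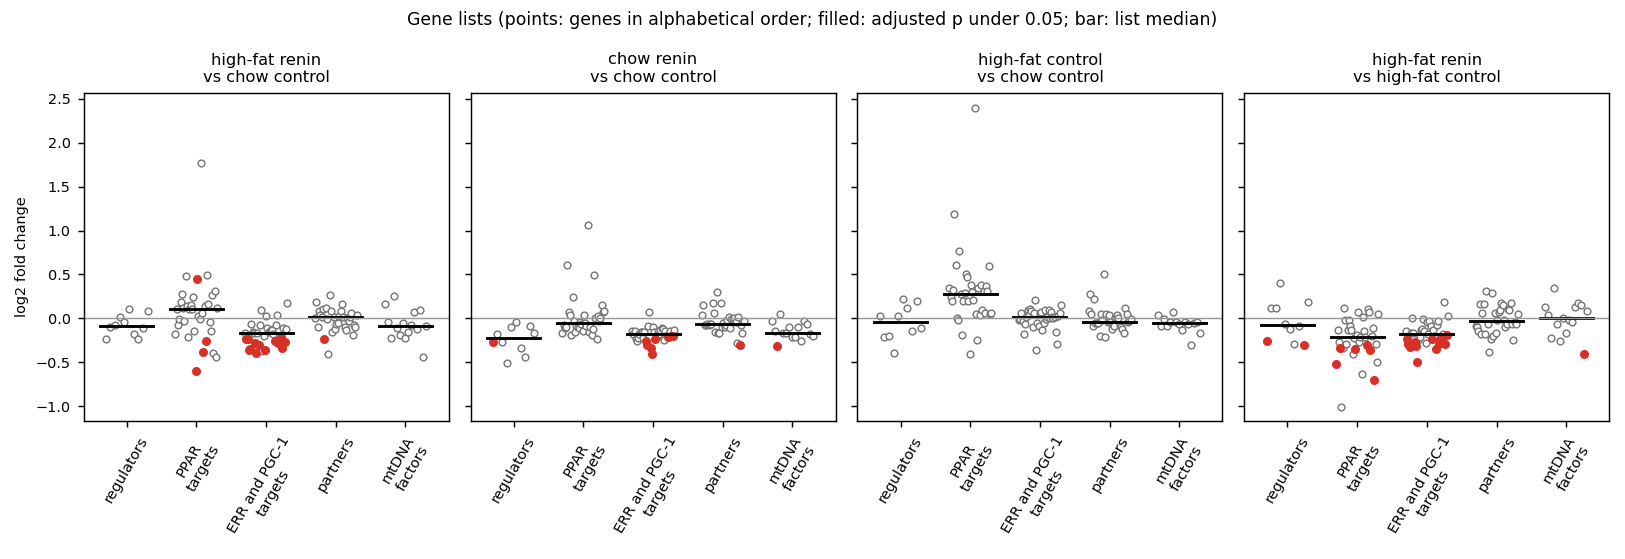
The log2 fold change of every tested gene in the regulator set and in 4 gene lists, for 4 comparisons. Points are genes in alphabetical order, filled where the adjusted p is under 0.05, and bars are list medians. The median of the ERR and PGC-1 targets lies below 0 in the 3 comparisons of a renin group with a control, and that of the PPAR targets is 0.28 in high-fat control against chow control.

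On the high-fat diet, renin came with lower Esrra and Rxra. In high-fat renin hearts set against high-fat control hearts 2 of 10 members were called and both fell, beside 11.1% of all genes tested, 5.08% called lower and 6.07% called higher. Rxra had 78.6 to 101.4 CPM with a median of 90.5 in high-fat control, and 58.8, 71.1, 84.1, 76.6 and 72.1 CPM in high-fat renin. The groups overlapped through high-fat renin 3, and the other 4 lay below every high-fat control heart. Rxra fell by 0.31 (SE 0.0765, 95% interval -0.46 to -0.15), with an edgeR adjusted p of 0.0131. Esrra had 150.3 to 191.1 CPM with a median of 167.8 in high-fat control, and 4 of the 5 high-fat renin values given above lay below that range. Esrra fell by 0.25 (SE 0.0745, 95% interval -0.41 to -0.10), with an adjusted p of 0.0301. As log2 ratios of mean TPM these were -0.18 for Rxra and -0.14 for Esrra, where the median of all genes was 0.12.

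The Rxra call was kept in 19 of 21 alternatives. It was lost with the clock score (-0.21, adjusted p = 0.313) and without high-fat renin 1 (adjusted p = 0.0527). The Esrra call was kept in 14 of 21, and was lost with the clock score (-0.26, adjusted p = 0.230), with replicate numbers as a block (adjusted p = 0.0583), without the libraries with atrial tissue (-0.27, adjusted p = 0.0503), and without high-fat control 5 or 6 or high-fat renin 2 or 5. Ppargc1a had 57.5 to 80.2 CPM in high-fat control and 46.3 to 70.0 CPM in high-fat renin, a difference of -0.29 and an adjusted p of 0.161. Tfam had a positive difference of 0.19 (SE 0.0733, adjusted p = 0.0923), and passed without high-fat renin 4 (adjusted p = 0.0399). The remaining members had 0.41 for Ppara, 0.12 for both Esrrb and Esrrg, -0.07 for Ppard, -0.09 for Ppargc1b and -0.12 for Pparg, with adjusted p-values from 0.426 to 0.790.

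Genes of both target lists fell in this comparison. Of 35 ERR and PGC-1 targets 13 fell and 0 rose, beside 5.08% of all genes called lower and 11.1% called either way, with a median of -0.18 and 32 of 35 values negative. Cox7a1 fell by 0.50 (adjusted p = 0.00371), Ndufv1, of respiratory complex I, by 0.35 (adjusted p = 0.00317) and Atp5o by 0.33 (adjusted p = 0.00714). Of 34 PPAR targets 6 fell and 0 rose, or 17.6% against the same 5.08%, with a median of -0.21 and 28 of 34 values negative. Slc27a1, a fatty acid transport protein, fell by 0.71 (SE 0.146, adjusted p = 0.00496). It had 266.3 to 323.3 CPM in high-fat control and 118.2 to 243.2 CPM in high-fat renin, without overlap. Acaa2, the last enzyme of mitochondrial fatty acid oxidation, fell by 0.52 (adjusted p = 0.00831), and Plin5, a lipid droplet protein, by 0.36 (adjusted p = 0.0286).

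With the clock score as a covariate, 0 genes of either target list were called, and the ERR and PGC-1 count was 7 without high-fat renin 1 or without high-fat renin 5. DESeq2 called 10 PPAR targets lower. Summed cardiomyocyte markers were 48240 to 57010 CPM in high-fat control and 42460 to 49370 CPM in high-fat renin. Of the 7 markers 4 fell and 1 rose, and their part in the target genes was not tested. Among the other lists, 0 of 32 partners were called by edgeR, with 8 at an unadjusted p under 0.05 (26.5% of all genes were), and Top1mt, the mitochondrial topoisomerase, was the 1 of 15 mitochondrial DNA factors that fell (by 0.40, adjusted p = 0.0478). Both counts lie below the 11.1% of all genes called.

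Between the 2 renin groups Tfam differed. It had 28.9 to 33.9 CPM with a median of 30.2 in chow renin, and 38.5, 37.95, 34.4, 32.3 and 38.5 CPM in high-fat renin. The groups overlapped through high-fat renin 4 and chow renin 5, and 4 of 5 high-fat renin hearts lay above every chow renin heart. Tfam rose by 0.25 (SE 0.0731, 95% interval 0.10 to 0.40), with an edgeR adjusted p of 0.0168. It was the 1 member of 10 called, beside 22.6% of all genes tested, 9.8% called higher and 12.8% called lower. Of the 10 members 9 had positive differences, with a median of 0.16 against 0.02 for all genes (6 of 10 in TPM, where the median of all genes was -0.09). Beside that of Tfam they were 0.52 for Ppara, 0.21 for Ppargc1b, 0.20 for Esrrg, 0.17 for Ppargc1a, 0.14 for Pparg, 0.09 for Esrrb, 0.05 for Ppard and 0.04 for Esrra, and Rxra had -0.02 (adjusted p = 0.275 to 0.886 for these 9). In the authors' normalized signal the log2 ratio was -0.003 for Ppargc1b and -0.04 for Rxra, and positive for the other members. In the same comparison 7 of 7 central nervous markers fell, 3 of 6 endothelial markers rose (6 of 6 were positive, with a median of 0.24), and of 7 cardiomyocyte markers 2 rose and 3 fell. Summed endothelial markers were 822.8 to 970.3 CPM in chow renin and 917.3 to 1156 CPM in high-fat renin, and the part of these markers in the Tfam difference was not tested beyond the central nervous score given next.

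Whether renin acted on Tfam differently by diet was tested as an interaction, which subtracts the renin difference on chow from that on high fat. It was 0.35 for Tfam (SE 0.107, 95% interval 0.13 to 0.58), with an edgeR adjusted p of 0.0347. As log2 ratios of mean TPM the renin difference in Tfam was 0.01 on chow and 0.39 on high fat, where the medians of all genes were 0.09 and 0.12. In the authors' normalized signal it was -0.10 on chow and 0.24 on high fat. Tfam was again the 1 member of 10 called, beside 10.4% of all genes tested, 3.14% called higher and 7.3% called lower. The interaction was kept in 14 of 31 alternatives and lost in 17, among them both other scalings (adjusted p = 0.0505 with relative log expression and 0.0661 with upper-quartile factors) and no filter on low counts (0.0658). With the central nervous score, the Tfam difference was 0.13 (adjusted p = 0.9999) between the renin groups and 0.20 (adjusted p = 0.999) in the interaction. The other Tfam call, between the renin groups, was kept in 14 of 21 alternatives. It was lost with upper-quartile factors (adjusted p = 0.0535), without chow renin 1 or 3, without high-fat renin 1 or 5, and without the libraries with atrial tissue (0.22, adjusted p = 0.105).

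For Esrra the interaction was 0.02 (95% interval -0.20 to 0.25, adjusted p = 0.945). For Ppara it was 0.91 (-0.14 to 1.96) and for Rxra -0.21 (-0.45 to 0.02), with adjusted p-values of 0.298 and 0.261. Esrrg had 0.39, Ppargc1b 0.36, Esrrb 0.30, Ppargc1a 0.05, Ppard 0.02 and Pparg -0.08, with adjusted p-values from 0.184 to 0.918. Of 15 other mitochondrial DNA factors 13.3% were called between the renin groups and 6.67% in the interaction, below the 22.6% and 10.4% of all genes. Tefm, the elongation factor of mitochondrial transcription, rose between the renin groups by 0.33 (adjusted p = 0.00481) and had an interaction of 0.39 (SE 0.12, adjusted p = 0.0384). Lonp1, the mitochondrial protease that degrades free Tfam protein, rose between the renin groups by 0.20 (adjusted p = 0.0166).

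Target genes between the renin groups went both ways. Of 34 PPAR targets 5 rose and 3 fell, and the 23.5% called lies near the 22.6% of all genes. Fabp3 was higher by 0.41 (adjusted p = 0.000371), Mgll by 0.33 (adjusted p = 0.0104) and Slc25a20 by 0.30 (adjusted p = 0.0214). With the central nervous score 0 rose and 0 fell, and with upper-quartile factors 2 rose. Without chow renin 6 the number that rose was 11, and without the libraries with atrial tissue it was 1. It was 2 without chow renin 1, 3 or 5 and 3 without chow renin 2 or high-fat renin 2. Ehhadh, Slc27a1 and Lpl fell, by 0.45, 0.41 and 0.29 (adjusted p = 0.0168, 0.04997 and 0.0412), and 1 fell without chow renin 2, 4 or 6 or high-fat renin 1, 2 or 5.

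Of 35 ERR and PGC-1 targets 8.57% were called between the renin groups, below the 22.6% of all genes. Of these 2 rose (Perm1 by 0.29 and Cycs by 0.23) and 1 fell (Gpd2 by 0.44), with adjusted p-values of 0.0254, 0.00944 and 0.0044, and 0 were called with the central nervous score. With upper-quartile factors 1 rose and 2 fell, and 1 rose without chow renin 1 or 5 or high-fat renin 1 or 3. Without the libraries with atrial tissue or without chow renin 3, 0 rose, and 4 rose without chow renin 6. Of 32 partners 6.25% were called: Prkaa2, a catalytic subunit of AMP-activated kinase, rose by 0.29 (adjusted p = 0.0417), and Hdac3 fell by 0.17 (adjusted p = 0.0396). Slc27a1 was the 1 PPAR target with a called interaction, -0.71 (SE 0.213, adjusted p = 0.0347), and 0 of 35 ERR and PGC-1 targets had one by edgeR (5 at an unadjusted p under 0.05), against 10.4% of all genes called and 23.0% at an unadjusted p under 0.05. The count of 1 was 0 with no filter on low counts, with the central nervous score, and without any 1 of chow control 1, 2 or 3, chow renin 3, 4 or 6, high-fat control 3 or 6, or high-fat renin 2 or 5. It was 2 in DESeq2 and without chow renin 5 or high-fat control 4 or high-fat renin 4, and 3 with the clock score.

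Hearts of the same group differed most in Ppara. Across the 21 hearts its highest CPM was 3.52 times its lowest, against 1.31 times for Ppard and 1.52 times for Esrra. The chow control hearts had 24.4, 21, 7.89 and 10.6 CPM. High values were also found in chow renin 6 (19.6 CPM), high-fat control 1 (23.4 CPM) and high-fat renin 1 (26.6 CPM). Each group thus had at least 1 heart at 19.6 CPM or more, and the lowest hearts of the groups lay between 7.55 and 10.2 CPM. These values rest on 152 to 631 estimated reads a heart.

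**Figure D4:**
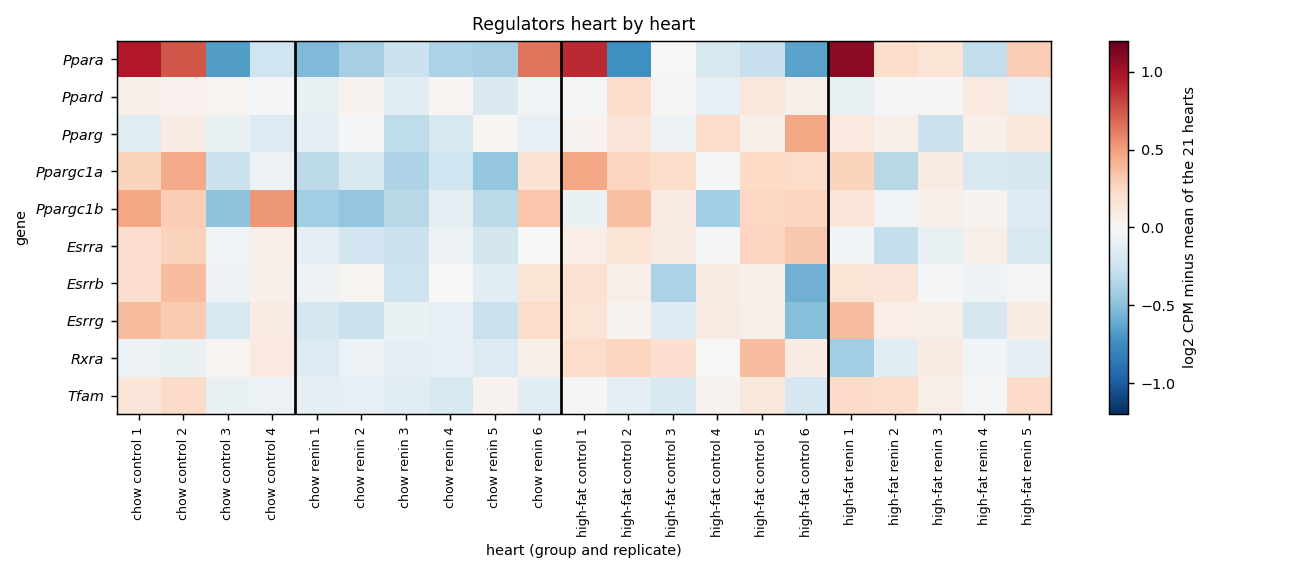
Each square is 1 regulator in 1 heart, coloured by its log2 CPM minus the mean of the 21 hearts, with black lines between the 4 groups. Ppara has the strongest colours, and chow renin 6 is redder than the other chow renin hearts for Ppara, Ppargc1a, Ppargc1b and Esrrg.

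Some pairs of regulators rose and fell together from heart to heart. Of 45 pairs over 21 hearts, 34 had a positive Pearson r, and 13 had a permutation p under 0.05 after Benjamini-Hochberg adjustment, all of them positive. These values share libraries and their normalization. The share among pairs of other genes was not measured, so the count is not read as particular to the regulators. Hearts were permuted across the groups, so group differences enter these p-values. Esrrb and Esrrg, the beta and gamma ERRs, had r = 0.823 and Spearman's rho = 0.852 (two-sided permutation p = 1e-05 for both, the smallest that 100000 permutations can give; adjusted p = 0.000225). Without the 2 hearts farthest from the Esrrb median r was 0.789, and between deviations from the group means it was 0.811. Ppara and Esrrg had r = 0.817 and rho = 0.855 (permutation p = 1e-05, adjusted p = 0.000225), with 0.734 without the 2 farthest hearts and 0.796 within groups.

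The coactivators went with ERR alpha. Ppargc1a and Esrra had r = 0.787 and rho = 0.814 (permutation p = 4e-05 and 3e-05, adjusted p = 0.0006 and 0.00045), with 0.781 without the 2 farthest hearts and 0.627 within groups. Ppargc1b and Esrra had r = 0.698 and rho = 0.692 (permutation p = 0.00056 and 0.00069, adjusted p = 0.0063 and 0.00776), with 0.694 and 0.689 in the same checks. For Esrra and Rxra, r was 0.542 over all hearts and rho 0.636 (permutation p = 0.0111 and 0.0023, adjusted p = 0.0407 and 0.0129). It was 0.643 without the 2 farthest hearts and 0.118 within groups, so the relation did not hold within groups.

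The tested genes most like each member over the 21 hearts were found by the Pearson r of log2 CPM, as a description. For Esrra they were Tmem246 (0.944), Ndufc2, a complex I subunit (0.924), and Pank4 (0.907). For Rxra they were Idh3g, a subunit of isocitrate dehydrogenase (0.921), Mia2 (0.893) and Kiz (0.888). For Tfam they were Narf (0.895), Wdr26 (0.892) and Ccng1 (0.889). Among the genes most like Ppara were Ikbkg (0.918) and Pdpr (0.909). Ppargc1a and Ppargc1b had the same gene first, Abcd3, a fatty acid transporter of peroxisomes (0.893 and 0.827). Esrrg was most like Fsd2 (0.900), Ryr2, the calcium release channel (0.889), and Canx (0.888), and Esrrb most like Hspa9, a mitochondrial chaperone (0.891). Ppard was most like Clybl (0.817) and Pparg most like Hras (0.835).

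Transcripts of 7 members begin in more than 1 region, where starts over 2000 bases apart count as separate regions, a distance set after seeing the data. In 4 of the 7, Pparg among them, the most upstream region held nearly all of the level: the whole in Ppara, 99.7% ± 0.656 in Rxra and 96.6% ± 1.14 in Ppard, whose most downstream region had 3.06% ± 0.704 (SD, n = 21). Shares are percentages of a gene's TPM and rest on the authors' estimates for transcripts that share exons. Pparg came from its upstream start region in 98.0% ± 2.59 (SD, n = 21), a region with 2 RefSeq windows, of which the first is printed above. Its other 2 regions, 22748 and 79024 bases on, had 0.0% and 0.753% ± 1.23. The start of the printed downstream window, 61115 bases on, which makes the adipocyte form called gamma 2, had 1.21% ± 2.14 and 0 to 15 estimated reads a heart. Ppargc1a came from its downstream region in 92.0% ± 5.87, and from the start 13804 bases upstream in 7.98% ± 5.87. That upstream share was 13.6% ± 7.19 in high-fat renin (n = 5) and 5.58 to 7.11% on average in the other groups, but it rested on 1 to 40 estimated reads a heart and the ranges overlapped, so no difference is read from it.

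Esrra came from 1 start region in every heart, whereas Esrrb and Esrrg came from more than 1. Esrrb came from its most upstream start in 66.1% ± 8.79 and from a region 60527 bases on in most of the rest. Esrrg came from its downstream region, 389036 bases from the first, in 72.5% ± 11.1. In Rxra a single transcript, Rxra-201, held 99.2% ± 1.6. Exons of Esrra overlap those of Trmt112 on the opposite strand, which had a mean of 15.8 CPM beside 154.1 CPM for Esrra. Whether the counting used strand is not given in the sources used here, so some reads of one could have been given to the other.

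**Figure D5:**
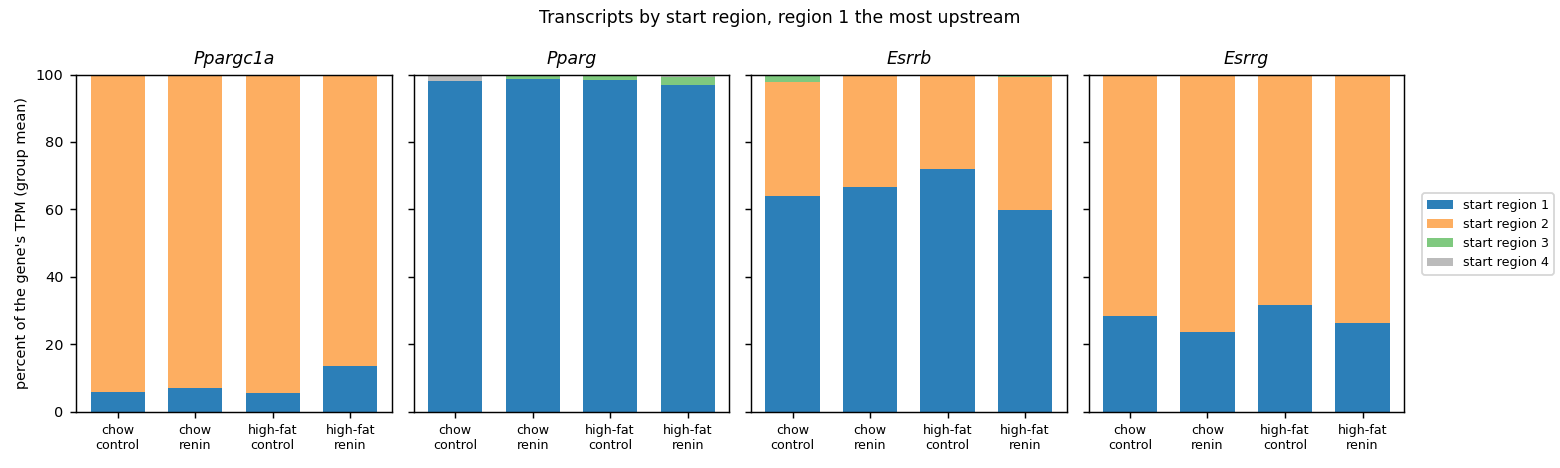
Share of a gene's TPM by start region (percent, mean of the hearts in each group), numbered from the most upstream. Pparg comes almost wholly from region 1 and Ppargc1a mostly from region 2, in all 4 groups.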

How the data were processed

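Per the submitters' processing notes, the authors used Salmon 1.10.2 and DESeq2 1.40.2 with the GRCm38 mouse genome. The deposited transcript tables hold estimated counts and TPM. The authors' deposited gene table holds a normalized signal per sample, log2 fold changes and adjusted p-values for the diet and virus groups, and its scaling is not given in the sources used here. Transcript lengths are deposited too.

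Here 98.0% of 119215 transcripts were matched by identifier to GENCODE M21 and summed by gene, which left out 0.854 to 0.925% of reads. Estimated counts were rounded, where the plan had assumed whole counts. Testing used edgeR 4.0.16 in R 4.3.3 (trimmed mean of M-values, low-count filter, robust quasi-likelihood F test) with all 21 libraries and 1 coefficient per group. SE is the log2 fold change divided by the root of F. DESeq2 1.42.0 was an alternative, with other scalings, no filter, a replicate block, covariates, no mitochondrially encoded genes and each library left out. The edgeR steps and the pair correlations were tested on simulated data. No 2 libraries of a group agreed within sampling noise (46 pairs, chi-square per degree of freedom at least 3.52).

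Members and lists were chosen with earlier results of these data known. All 10 members are named in every comparison. List genes named are the 3 largest called changes in each direction, plus, for high-fat renin against chow control, Cpt1b, Pdk4, Ucp3, Angptl4, Acot1, Cycs, Perm1, Nrf1, Gabpa, Ncor1, Nrip1 and Sirt1. Others were named after their values were seen. Some genes that these rules select are not reported here. Genes most like a member had a mean of at least 5 CPM.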

Additional observations from a re-analysis of the deposited data

Results flagged for a closer look

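Of 40 groups of 4 to 6 hearts (10 regulators in 4 groups), 7 had a highest or lowest heart far from the others by Dixon's test on CPM. Chance marks about 1 in 20 groups. Chow renin 6 accounted for 4 of them. It had 19.6 CPM of Ppara where the other 5 had 8.69 to 10.5, 65.9 CPM of Ppargc1a against 42.2 to 50.9, 34.3 CPM of Esrrg against 24.6 to 27.95, and 82.2 CPM of Rxra against 69.7 to 74.3. Without this heart Ppargc1a and Ppargc1b passed the test in chow renin against chow control (edgeR adjusted p = 0.0269 and 0.0167).

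Ppara was also far from the rest in high-fat control 1, at 23.4 CPM against 7.55 to 12.6. Pparg was low in high-fat renin 3, an atrial library, at 8.69 CPM against 10.9 to 11.4. Tfam was high in chow renin 5, at 33.9 CPM against 28.9 to 30.7.

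The renin difference in Tfam went opposite ways by diet, at -0.16 for chow and 0.19 for high fat, neither of which passed the test. In the authors' normalized signal the log2 ratios were -0.10 for chow and 0.24 for high fat, also opposite in sign. In TPM the chow value was 0.01 and the high-fat value 0.39, both positive, where the medians of all genes were 0.09 and 0.12. The edgeR values differed by 0.35 on the log2 scale (edgeR interaction, adjusted p = 0.0347), and this was lost in 17 of 31 alternatives.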

How the results depend on the processing

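No called member changed sign in any of 31 alternatives, and 60 of 1320 values differed in sign where neither was called. Genes called were 0 with the clock score in high-fat renin against chow control. With the central nervous score they were 34 in chow renin against chow control, 40 between the renin groups and 29 in the interaction. With the clock score they were 37 between high-fat renin and its diet control. In high-fat control against chow control they were 0 with a replicate block or without atrial libraries, 18 with the clock score, 4 with the atrial score, 114 with the central nervous score and 117 in DESeq2. Members called were 0 with either the clock or the central nervous score and without atrial libraries in chow renin against chow control. Between high-fat renin and its diet control they were 1 with the replicate block, 0 with the clock score and 1 without atrial libraries. Between the renin groups they were 0 with upper-quartile factors, with the central nervous score and without atrial libraries. In the interaction they were 0 with relative log expression or upper-quartile factors, with no filter, with the central nervous score and without atrial libraries. The cause of these changes was not tested, and leaving out libraries also lowers the number of hearts. Without atrial libraries Esrra had -0.29 in chow renin against chow control, beside -0.27 in the main fit. Between high-fat renin and its diet control it had -0.27, beside -0.25.

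Leaving out 1 library at a time gave 565 to 1723 genes and 0 to 1 members in high-fat renin against chow control, 1512 to 2268 and 0 to 3 in chow renin against chow control, 0 to 57 and 0 to 0 in high-fat control against chow control, 696 to 2394 and 1 to 3 between high-fat renin and its diet control, 2473 to 3666 and 0 to 1 between the renin groups, and 1220 to 1951 and 0 to 1 in the interaction. Upper-quartile factors moved the share of called genes that were higher from 75.0% to 86.0% in chow renin against chow control, from 43.3% to 27.3% between the renin groups and from 30.1% to 19% in the interaction.

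Replicate numbers did not pair the hearts: same-numbered hearts of different groups had a median correlation of 0.10 over 28 pairs (-0.27 to 0.48), against -0.02 over 136 pairs with different numbers (-0.35 to 0.48), and 7 of 21 hearts matched their own number best. The replicate block ended the Esrra call between high-fat renin and its diet control (adjusted p = 0.0583). The alternative without atrial libraries, with its score limit of 4, was chosen after seeing the data, as was the use of CPM for Dixon's test. Ppara, Pparg and Ppargc1b had the fewest estimated reads a heart, at 152 to 631, 189 to 327 and 171 to 417, and how far depth limits each was not tested.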
